A study of Mus musculus with 6 samples.

Results

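The tripartite motif (TRIM) genes encode a family of proteins that carry, from the amino end, a RING finger, a B-box and a coiled coil, followed by a C-terminal domain that chooses the partner. The RING finger makes most of them E3 ubiquitin ligases: it holds a ubiquitin-loaded E2 enzyme next to a substrate so that ubiquitin is passed on. Some members act in the nucleus as transcriptional co-regulators, some organise microtubules or muscle filaments, and a large branch carries a PRY-SPRY domain. Part of that branch acts in antiviral defence and is itself switched on by interferon through JAK kinases and STAT factors. YOD1, the protein overexpressed in this study, is a deubiquitinase and so works in the opposite direction to an E3 ligase. Members were the genes of the deposited table whose symbol begins with Trim and a digit and whose transcript types include a protein-coding one, which gave 58 of 28789 genes.

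The samples were cultures of TCMK1, an epithelial line of mouse kidney tubule, and every one of them had been treated with angiotensin II (Ang II). The groups were 3 control libraries with genotype "control" and 3 libraries with genotype "YOD1 overexpression". How YOD1 was introduced and what the controls received in its place are not given in the sources used here. Whether replicates are separate cultures is also not given, so a p-value reflects the spread among these libraries alone, and that spread may be technical. Values are FPKM, fragments mapped to a gene scaled by transcript length and by the library's total, so levels may be compared between genes per unit of length, while the number of reads behind them is unknown. Fewer cells of a kind and less RNA per cell cannot be told apart in such bulk samples.

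Yod1 itself stood at 0.842, 0.757 and 0.684 FPKM in controls 1, 2 and 3 and at 1.73, 7.56 and 1.86 FPKM in YOD1 libraries 1, 2 and 3. All YOD1 libraries lay above the controls and library 2 was the highest (log2 fold change 1.21, SE 0.37, limma adjusted p = 0.141). Without library 2 the difference was 0.67. Of 13 tubular and epithelial markers in the table, 11 reached 1 FPKM in at least 3 libraries, with sums of 755 to 873 FPKM in the controls and 824 to 1082 FPKM with YOD1, led by the keratin Krt18. The proximal tubule phosphate transporter Slc34a1 and the loop transporter Slc12a1 were at or near 0. Leukocyte markers summed to 43.6 to 57.9 FPKM in the controls and 45.8 to 70.9 FPKM with YOD1, mostly from Cd74, Cd68 and Lyz2, while the pan-leukocyte gene Ptprc stayed between 0.02 and 0.07 FPKM. Fibroblast markers summed to 12.5 to 15.5 and 6.40 to 14.1 FPKM, and endothelial markers to 0.950 to 1.64 and 1.57 to 2.67 FPKM.

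Promoter sequences are shown for interferon-linked members of the family. Whether they relate to the levels below was not tested. RefSeq places 10 TRIM genes (Trim6, Trim34a, Trim5, Trim12a, Trim34b, Trim12c, Trim30b, Trim30c, Trim30a and Trim30d) in a run of 18 genes on chromosome 7 of assembly GRCm38.p6, and 9 of them are in the deposited table. They are close relatives, so reads may be split or shared between neighbours such as Trim30a and Trim30d or Trim12a and Trim12c, and their single values are uncertain. RefSeq promoter windows of 300 bases, 250 before the start of a gene and 50 after it, were found for 44 of the 58 members. They were searched on both strands for GAAA, any 2 bases and GAAA again, a repeated element bound by interferon regulatory factors and by the STAT complex of type I interferon signalling.

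The repeat was found in 8 of 12 interferon-linked members with a window, in 1 of 32 other members (Trim2), and in 3.99% of the 27025 genes with a window. The 8 include close relatives that share promoter sequence, so they are not independent points. Matches may overlap each other, as they do in Trim21 and Trim26. The windows below are shown because the match lies just before the start in 4 genes of the chromosome 7 run. Capitals mark the match, which reads TTTC, any 2 bases and TTTC where it lies on the strand opposite to the gene. All are written 5′ to 3′ on the strand of the gene.
Trim30a, chr7:104465201-104465300, minus strand, GRCm38.p6: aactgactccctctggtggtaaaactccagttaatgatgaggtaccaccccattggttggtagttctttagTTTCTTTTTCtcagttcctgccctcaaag
Trim30d, chr7:104507862-104507961, minus strand, GRCm38.p6: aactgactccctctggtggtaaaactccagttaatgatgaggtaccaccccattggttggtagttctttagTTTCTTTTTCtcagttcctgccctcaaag
Trim12c, chr7:104353350-104353449, minus strand, GRCm38.p6: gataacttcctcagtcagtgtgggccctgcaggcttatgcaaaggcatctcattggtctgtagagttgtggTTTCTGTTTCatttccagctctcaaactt
Trim5, chr7:104288127-104288226, minus strand, GRCm38.p6: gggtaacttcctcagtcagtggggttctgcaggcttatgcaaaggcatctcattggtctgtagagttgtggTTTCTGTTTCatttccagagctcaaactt

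The windows of Trim30a and Trim30d were identical in 100 of 100 bases, and those of Trim12c and Trim5 in 79 of 100 without gaps. Windows taken across these pairs shared 40 to 47 bases. The match began 36 bases before the start in Trim30a, 41 in Trim30d, 29 in Trim12c and 49 in Trim5. The windows were placed so that the match has the same offset in each. Trim30a has a second annotated start elsewhere, with a match of the same letters at bases 3 to 12 after it. In 3 further interferon-linked members the match lies within the first bases of the gene, as it does at bases 29 to 38 of Trim2, and in Trim26 it lies 145 to 160 bases before the start. These are shown as 30-base windows, and the 30 bases of Trim12a also occur unchanged in the printed window of Trim5.
Trim12a, chr7:104315466-104315495, minus strand, GRCm38.p6: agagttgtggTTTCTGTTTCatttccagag
Trim34a, chr7:104244457-104244486, plus strand, GRCm38.p6: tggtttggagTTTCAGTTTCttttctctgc
Trim21, chr7:102565447-102565476, minus strand, GRCm38.p6: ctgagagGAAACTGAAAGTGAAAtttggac
Trim26, chr17:36836979-36837008, plus strand, GRCm38.p6: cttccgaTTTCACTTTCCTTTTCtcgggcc

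Windows of Trim25, Trim56, Trim30b and Trim34b did not hold these letters, and Trim14 had no window. A match describes the sequence and is not a measured binding site.

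**Figure D1:**
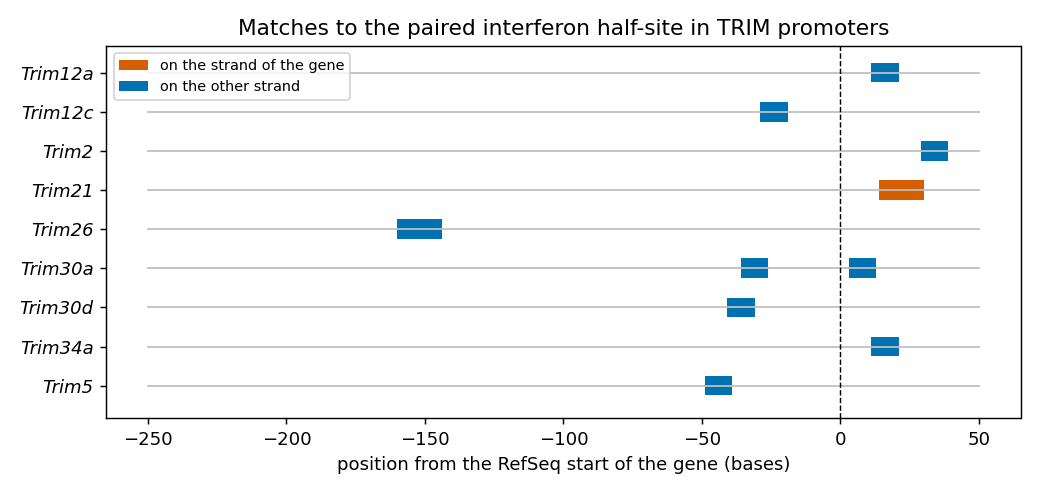
Positions of the GAAA repeat in the RefSeq promoter windows of the 9 TRIM genes that hold it, in bases from the annotated start (dashed line). Each grey line spans the 300-base window and each block is a match, coloured by strand; for Trim30a the windows of 2 annotated starts are drawn on the same line. In Trim5, Trim12c, Trim30a and Trim30d a match lies 20 to 49 bases before a start.

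The family covered a wide range of levels. A gene was tested where 3 or more of the 6 libraries reached 1 FPKM, and 26 of the 58 members passed this filter (44.8%, against 39.9% of all genes in the table). The median level of the 26 over all libraries was 6.81 FPKM, against 7.57 FPKM for all tested genes. Trim28, the co-repressor that KRAB zinc finger proteins bring to chromatin, stood far above the rest and made up 41.8% to 45.8% of the summed TRIM FPKM in the controls and 42.6% to 52.5% with YOD1. It was measured at 202, 241 and 212 FPKM in the controls and at 209, 211 and 258 FPKM in the YOD1 libraries. Trim35 and Trim47 followed with means over 6 libraries of 37.7 and 35.6 FPKM, and 12 members in all had a mean above 10 FPKM. No member was listed at 0 in all 6 libraries, but 9 of the 32 untested ones stayed below 0.1 FPKM everywhere.

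**Figure D2:**
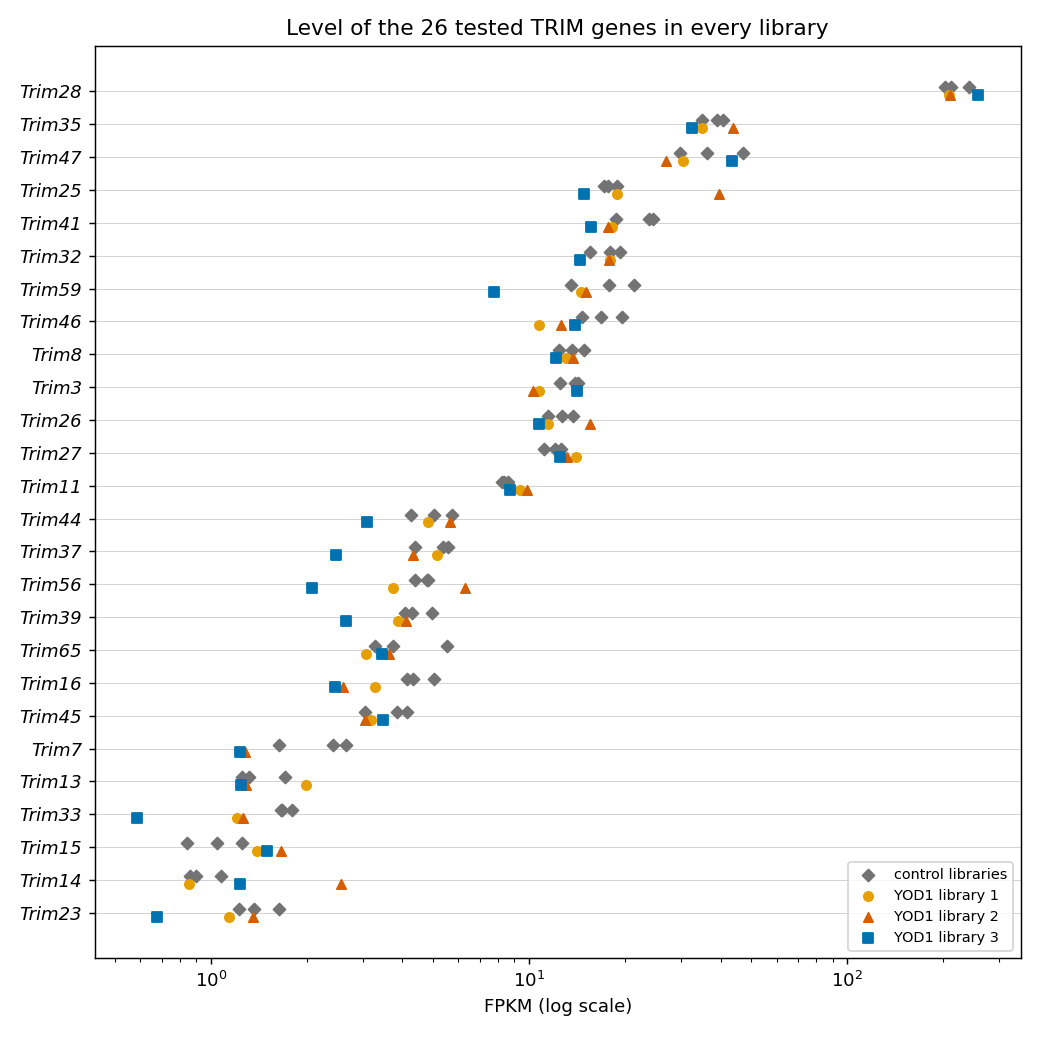
FPKM on a log scale of the 26 tested TRIM genes, ordered by mean level, with grey diamonds for the 3 control libraries and coloured symbols for YOD1 libraries 1 to 3. Trim28 lies at 202 FPKM or more in every library, and the symbols of YOD1 library 3 lie farthest to the left for 16 of the 26 genes.

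The main comparison asked which TRIM transcripts differed between cells with YOD1 overexpression and controls. None of the 26 tested members passed limma on log2(FPKM + 1) at an adjusted p of 0.05 over all 11483 tested genes. The share called among those was 0.479% (0.444% on the higher and 0.0348% on the lower side). The lowest adjusted p of a member was 0.132. At an unadjusted p under 0.05, 5 members were lower (19.2%, against 13.0% of all tested genes) and 0 were higher (against 7.87%), or 5 in either direction against 20.9%. When the whole table was fitted with no filter, 0 of the 32 members below the filter passed (against 0.0% of all 28789 genes), and 4 had an unadjusted p under 0.05 (12.5%, against 11.9%). The authors' deposited table marks 0 of the 58 as significant, against 0.993% of its genes. The 95% intervals of the log2 fold change lay within -1 to 1 for 25 of 26 members and within -0.5 to 0.5 for 9, so for most members the data leave room for differences of moderate size. As a description, 19 of 26 log2 fold changes were below 0 with a median of -0.15, against 63.6% and -0.10 for all tested genes. With median-ratio scaling, which shifted the median of all genes by 0.092, 15 of 26 members and 51.2% of all genes were below 0.

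Groups that did not overlap were found for 7 of 26 members (26.9%, against 28.9% of all tested genes): Trim16, Trim7, Trim33, Trim46 and Trim41 were lower in all 3 YOD1 libraries, and Trim15 and Trim11 higher. The 5 lower members are 19.2% of the tested ones (against 19.1%), and the 2 higher ones 7.69% (against 9.77%). These shares are close to the background. With 3 libraries on each side the smallest p of an exact permutation test is 0.1, and no such test was run on single genes. YOD1 library 3 had the lowest value of all 6 libraries for 16 of 26 members (61.5%), against 42.5% of all tested genes. The median difference from the control mean was -0.14, -0.07 and -0.24 on the log2 scale in YOD1 libraries 1, 2 and 3, against -0.06, -0.04 and -0.18 for all tested genes. The longest annotated transcripts of tested members had a median of 3777 bp, against 3018.5 bp for all tested genes. After length and GC trends were removed the median log2 fold change was -0.077 for the members and -0.089 for all genes.

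**Figure D3:**
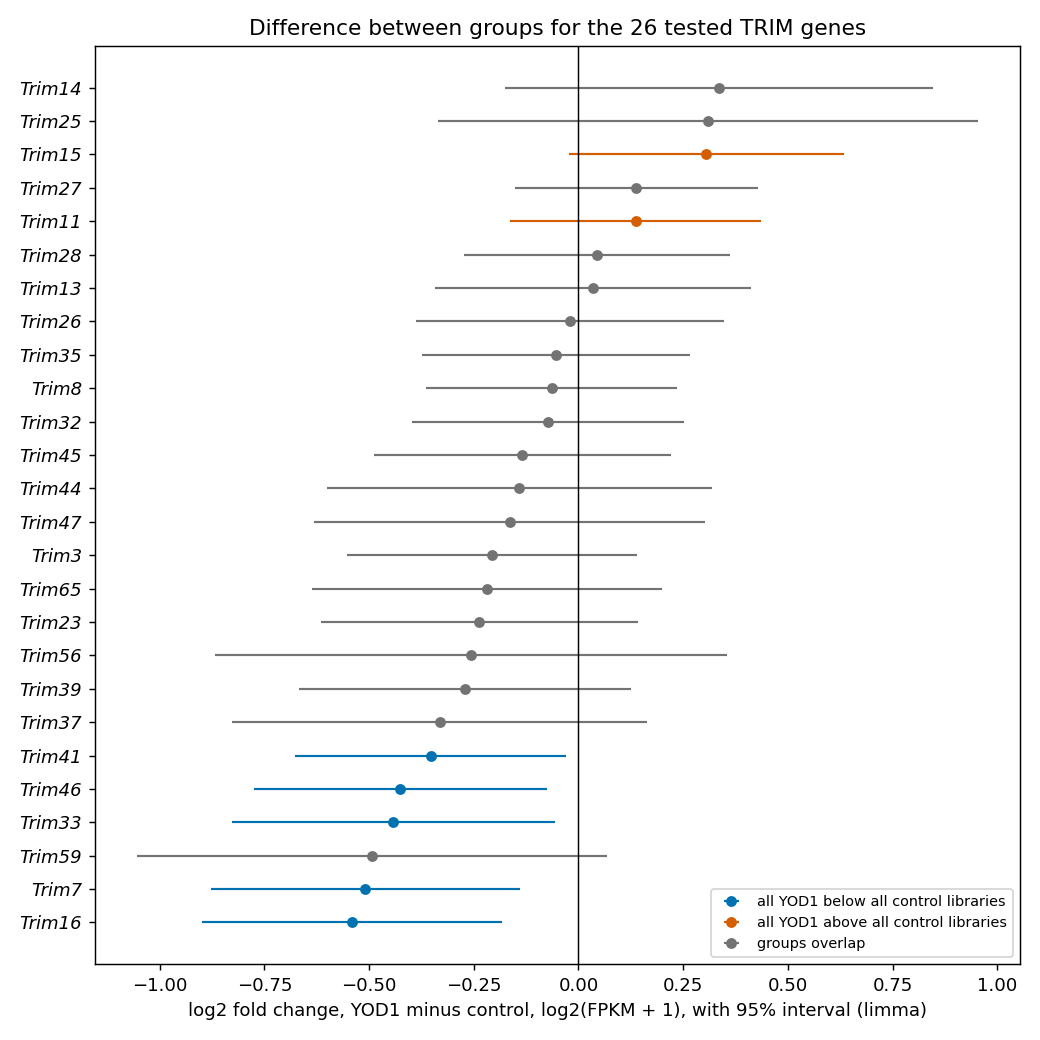
Log2 fold change (YOD1 minus control, log2(FPKM + 1) scale) of the 26 tested TRIM genes with 95% intervals from limma; n = 3 libraries per group. Blue marks the 5 genes whose YOD1 libraries all lie below the controls and orange the 2 genes above; only the intervals of those 5 leave out 0, and none of the 26 passed the adjusted test.

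Among members without a RING finger, Trim16, which acts in stress responses and in the clearance of damaged lysosomes, stood at 4.33, 5.02 and 4.12 FPKM in the controls and at 3.29, 2.60 and 2.46 FPKM with YOD1. All 3 YOD1 libraries lay below all controls. The log2 fold change was -0.54 (SE 0.16, limma adjusted p = 0.132) and ranged between -0.68 and -0.45 under all alternatives run. Trim44, also RING-less, had overlapping groups with means of 5.001 ± 0.735 and 4.52 ± 1.298 FPKM (SD, n = 3 each).

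In the PRY-SPRY class, 11 of the 30 members in the table were tested, 7 with a log2 fold change below 0 and 4 above. Trim7, a ligase known to bind the glycogen primer glycogenin, stood at 2.42, 2.65 and 1.64 FPKM in the controls and at 1.24, 1.28 and 1.23 FPKM with YOD1. The YOD1 libraries were close to each other and all below the controls, which spread more widely. The log2 fold change was -0.51 with an SE of 0.16 (limma adjusted p = 0.150, and 0.0919 to 0.419 under the alternatives). The authors' deposited table gives Trim7 q = 0.0704, the lowest of the tested members.

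Trim41, which targets protein kinase C, was measured at 24.5, 23.8 and 18.8 FPKM in the controls and at 18.2, 17.7 and 15.7 FPKM with YOD1. Control 3 came close to YOD1 library 1 without overlap (log2 fold change -0.35, SE 0.14, limma adjusted p = 0.213). Trim15, a RING protein linked to focal adhesions, went the other way, with 1.26, 0.841 and 1.05 FPKM in the controls and 1.40, 1.67 and 1.51 FPKM with YOD1. Its groups were apart, and the log2 fold change was 0.30 (SE 0.15, limma adjusted p = 0.264). The value was 0.20 after trends of transcript length and GC content were removed, and 0.20 to 0.51 under all alternatives run.

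Trim11 stood at 8.57, 8.25 and 8.32 FPKM in the controls and at 9.35, 9.86 and 8.75 FPKM with YOD1. This was a small difference between tight groups (log2 fold change 0.14, 95% interval -0.16 to 0.44, limma adjusted p = 0.563). Trim27, a nuclear and endosomal ligase, had means of 11.9 ± 0.707 and 13.2 ± 0.738 FPKM (SD, n = 3 each), and Trim35, known to act on the pyruvate kinase PKM2, 38.3 ± 3.04 and 37.0 ± 5.82 FPKM. Their groups overlapped. Trim39, Trim47 and Trim65 also had overlapping groups, with log2 fold changes from -0.27 to -0.16. Without YOD1 library 2 the value of Trim47, the smallest of the 3, was -0.026.

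Members of the PHD-bromodomain class co-regulate transcription, and some of them read histone marks. Trim33, which binds SMAD proteins of TGF-beta signalling, stood at 1.80, 1.66 and 1.68 FPKM in the controls and at 1.21, 1.27 and 0.586 FPKM with YOD1. The groups did not overlap, and YOD1 library 3 was well below the other 2 YOD1 libraries. The log2 fold change was -0.44 with an SE of 0.17, at a limma adjusted p of 0.200. It was -0.28 without YOD1 library 3 and -0.17 after removal of length and GC trends. Under all alternatives run it ranged from -0.76 to -0.17. The annotated transcript of Trim33, at 8875 bp, is the longest of the tested members after Trim56.

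Trim24, its relative that binds nuclear receptors, did not pass the filter. It stood at 0.820, 0.770 and 0.874 FPKM in the controls and at 0.784, 0.767 and 0.360 FPKM with YOD1, so that only YOD1 library 3 departed. For Trim28 the log2 fold change was 0.04 with a 95% interval of -0.27 to 0.36 (limma adjusted p = 0.871). The interval leaves out a change of 1 on the log2 scale in either direction.

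Trim46, a COS-domain protein that bundles microtubules in axons, was the single tested member of its class. It stood at 16.8, 19.7 and 14.6 FPKM in the controls and at 10.7, 12.6 and 13.9 FPKM with YOD1, with groups apart (log2 fold change -0.42, SE 0.16, limma adjusted p = 0.183). YOD1 library 3, lowest for most members, was here the highest of its group. After removal of length and GC trends the value was -0.47, and over the alternatives its adjusted p ranged from 0.0909 to 0.451.

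Of the 2 tested transmembrane members, Trim59 stood at 21.4, 13.5 and 17.9 FPKM in the controls and at 14.6, 15.1 and 7.76 FPKM with YOD1. Control 2 lay within the YOD1 range, and YOD1 library 3 was far below the rest (log2 fold change -0.49, SE 0.25, limma adjusted p = 0.283, and -0.21 without that library). Trim13, an ER-bound ligase, had means of 1.43 ± 0.249 and 1.50 ± 0.416 FPKM (SD, n = 3 each). Trim37, the MATH-domain member that keeps centriole number in check, followed the pattern of Trim59, with 5.37, 4.38 and 5.57 FPKM in the controls and 5.14, 4.31 and 2.47 FPKM with YOD1 (log2 fold change -0.33, and -0.09 without YOD1 library 3).

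The NHL-domain members Trim3 and Trim32 had overlapping groups. Trim32, mutated in limb-girdle muscular dystrophy, had means of 17.6 ± 1.89 and 16.7 ± 1.98 FPKM (SD, n = 3 each), and Trim3 of 13.6 ± 0.927 and 11.7 ± 2.12 FPKM. Trim8, which is known to counter the JAK inhibitor SOCS1, stood at 14.9, 13.7 and 12.5 FPKM in the controls and at 13.1, 13.8 and 12.2 FPKM with YOD1. Its groups overlapped almost fully (log2 fold change -0.06, 95% interval -0.36 to 0.24, limma adjusted p = 0.796). Trim23, the ARF-domain member, and Trim45, the filamin-domain member, had log2 fold changes of -0.24 and -0.13 with overlapping groups. For Trim23 the value was -0.096 without YOD1 library 3, -0.081 after removal of length and GC trends and -0.42 with a pseudocount of 0.1.

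The interferon-linked list named 15 genes, of which 13 were in the table and 4 (Trim25, Trim26, Trim56 and Trim14) were tested. Trim30c and Trim38 were not analysed here. Trim25, which ubiquitinates the RNA sensor RIG-I and also attaches ISG15, stood at 17.2, 18.9 and 17.7 FPKM in the controls and at 19.0, 39.5 and 14.9 FPKM with YOD1. YOD1 library 2 was 2.20 times the control mean, while the other 2 YOD1 libraries lay on either side of the controls. The log2 fold change was 0.31 with a 95% interval of -0.34 to 0.95 (limma adjusted p = 0.544), and -0.09 without YOD1 library 2.

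Trim14, a RING-less adaptor in MAVS signalling, had the same shape, with 0.901, 1.08 and 0.861 FPKM in the controls and 0.851, 2.57 and 1.23 FPKM with YOD1. It passed the filter with 1 control and 2 YOD1 libraries at 1 FPKM or more. The log2 fold change was 0.34 (SE 0.23, limma adjusted p = 0.400), and 0.06 without YOD1 library 2. Trim56, an antiviral ligase, stood at 4.39, 4.80 and 4.79 FPKM in the controls and at 3.73, 6.29 and 2.07 FPKM with YOD1, so that the YOD1 libraries lay on both sides of the tight control group. Its log2 fold change was -0.26 (limma adjusted p = 0.597). The value was -0.57 when YOD1 library 2 was left out and 0.05 when YOD1 library 3 was. Trim26, a regulator of IRF3, had means of 12.6 ± 1.11 and 12.6 ± 2.58 FPKM (SD, n = 3 each), again with its highest value, 15.5 FPKM, in YOD1 library 2.

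The other 9 members of the list were below the filter. Trim30a, a mouse ligase that restrains NF-kB signalling, stood at 0.0228, 0.275 and 0.338 FPKM in the controls and at 0.421, 1.28 and 0.654 FPKM with YOD1. The groups did not overlap, and control 1 was far below the other controls. When all genes of the table were fitted, its log2 fold change came to 0.54 (SE 0.20, limma adjusted p = 0.391), and the authors' deposited table gives q = 0.0660. Trim30d, whose printed 100-base stretch is the same as that of Trim30a, showed the same low control 1, with 0.0157, 0.180 and 0.145 FPKM in the controls and 0.135, 0.343 and 0.410 FPKM with YOD1. The macrophage lysozyme gene Lyz2 was also lowest in control 1, at 1.47 FPKM, against 8.15 and 9.04 FPKM in controls 2 and 3 and 10.5, 18.0 and 18.7 FPKM in YOD1 libraries 1, 2 and 3. The macrophage gene Adgre1 was near 0 but also apart between groups, with 0.0258, 0.0519 and 0 FPKM in the controls and 0.0855, 0.111 and 0.165 FPKM with YOD1. For Ptprc the means were 0.0267 ± 0.00622 and 0.0556 ± 0.0212 FPKM (SD, n = 3 each), with overlapping groups. Of the 9 leukocyte markers in the table, 7 had a mean difference above 0, and others did not share the pattern of Lyz2. Cd68 stood at 19.1, 22.9 and 12.6 FPKM in the controls and at 12.3, 12.9 and 15.3 FPKM with YOD1. Csf1r had means of 4.39 ± 0.555 and 4.59 ± 0.410 FPKM (SD, n = 3 each). Among the controls Tyrobp was highest in control 1, with 0.707, 0.400 and 0.341 FPKM. Whether leukocytes had any part in the Lyz2, Adgre1 or Trim30 values of these TCMK1 cultures was not tested.

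Trim34a stood at 0.471, 0.581 and 0.450 FPKM in the controls and at 0.706, 1.93 and 0.631 FPKM with YOD1. Trim12c stood at 0.0803, 0.159 and 0.0975 FPKM and at 0.187, 0.572 and 0.198 FPKM, and Trim12a at 0.174, 0.186 and 0.150 FPKM and at 0.206, 0.512 and 0.194 FPKM. These relatives of the retrovirus restriction factor TRIM5 shared their order: YOD1 library 2 well above all others, and the other 2 YOD1 libraries just above the controls. Together with Trim30a they made 4 of 13 list members whose YOD1 libraries all lay above the controls (against 6.95% of all genes in the table), and 0 lay below (against 10.9%). They are close relatives that may share reads, so they are not independent points. Trim21, the cytosolic antibody receptor, had 0.379, 0.535 and 0.540 FPKM in the controls and 0.310, 1.14 and 0.267 FPKM with YOD1, high in library 2 and below the controls in the other 2. Trim5, Trim30b and Trim34b stayed at or below 0.16 FPKM in every library.

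Across the list, YOD1 library 2 held the highest value of all 6 libraries in 10 of 13 members (76.9%), against 13.3% of the other 45 TRIM genes and 16.8% of all genes in the table. The median difference from the control mean was 0.01, 0.37 and 0.03 on the log2(FPKM + 1) scale in YOD1 libraries 1, 2 and 3. The mean difference was above 0 in 11 of 13 members with a median of 0.15, against 43.9% and -0.01 for all genes in the table. Without YOD1 library 2 it was above 0 in 8 of 13 with a median of 0.04, against 40.2% and -0.01. Among the 4 tested members the log2 fold change was above 0 in 2, with a median of 0.14, against -0.10 for all tested genes. Without YOD1 library 2 it was above 0 in 1 of these 4, with a median of -0.13, against -0.12 for all tested genes. The list was drawn up with earlier results of these data known, so these counts describe it and do not test it. YOD1 library 2 was also the library with the highest Yod1 value. Whether the Yod1 level relates to these genes was not tested. With 1 such library it cannot be told apart from anything else that differs in that library.

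**Figure D4:**
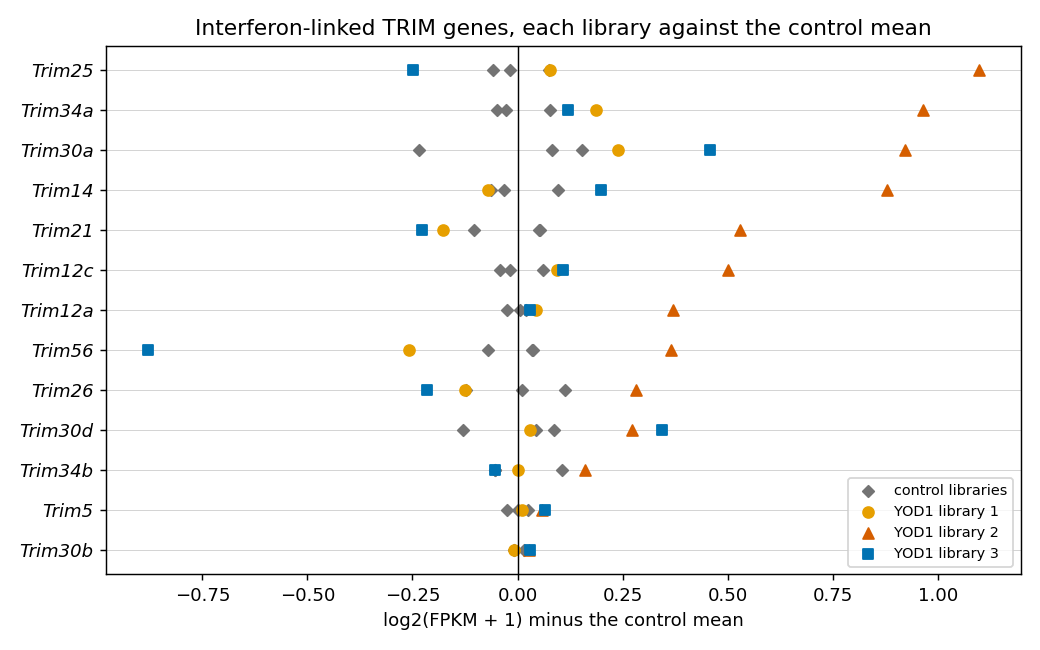
Difference of each library from the control mean, on the log2(FPKM + 1) scale, for the 13 interferon-linked TRIM genes in the table; grey diamonds are controls and coloured symbols YOD1 libraries 1 to 3. YOD1 library 2 is the highest library for 10 genes and YOD1 library 3 for Trim30d, Trim5 and Trim30b, while Trim56 spans from -0.88 in YOD1 library 3 to 0.37 in YOD1 library 2.

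Genes that work with TRIM proteins were described from lists of their own. Of 4 family members that carry other names, Pml, the organiser of nuclear bodies, was the single tested one, with 13.6, 18.7 and 16.0 FPKM in the controls and 12.2, 21.1 and 14.9 FPKM with YOD1 (limma adjusted p = 0.948). It too was highest in YOD1 library 2. Of 7 partners in RNA sensing, 0 passed limma over all genes (against 0.479% of all tested genes) and 0 had an unadjusted p under 0.05 (against 20.9%). Ddx58, which encodes RIG-I, the substrate of TRIM25, stood at 1.301, 1.49 and 1.41 FPKM in the controls and at 1.84, 7.70 and 1.52 FPKM with YOD1, with groups apart and YOD1 library 2 far above the rest (log2 fold change 0.73, SE 0.39, limma adjusted p = 0.306). Mavs, the adaptor downstream of RIG-I, had means of 20.7 ± 2.16 and 17.3 ± 1.50 FPKM (SD, n = 3 each).

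Of 14 tested E1 and E2 enzymes that load RING ligases with ubiquitin, 0 passed limma over all genes (against 0.479% of all tested genes). At an unadjusted p under 0.05, 3 were lower (21.4%, against 13.0%) and 0 higher (against 7.87%). Ube2n, the E2 that builds lysine-63 chains and serves many TRIM ligases, stood at 10.5, 10.5 and 12.2 FPKM in the controls and at 6.76, 7.78 and 6.30 FPKM with YOD1 (log2 fold change -0.61, SE 0.15, limma adjusted p = 0.1002). All 3 YOD1 libraries lay below the controls by more than the spread within either group. Ube2l3 had means of 39.3 ± 3.39 and 30.2 ± 1.83 FPKM (SD, n = 3 each, limma adjusted p = 0.159), and 13 of the 14 log2 fold changes were below 0 with a median of -0.18, against 63.6% and -0.10 for all tested genes. YOD1 library 3 was the lowest library for 11 of the 14 (78.6%, against 42.5% of all tested genes).

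Partners of TRIM28 in gene silencing gave 6 tested genes, of which 0 passed limma over all genes (against 0.479%) and 2 were lower at an unadjusted p under 0.05 (33.3%, against 13.0% of all tested genes). They were Chd3, a nucleosome remodeller with means of 34.3 ± 0.570 and 26.1 ± 3.84 FPKM (SD, n = 3 each, limma adjusted p = 0.172), and Cbx5, the heterochromatin protein HP1 alpha, with 11.8 ± 0.330 and 7.50 ± 3.68 FPKM (limma adjusted p = 0.237). YOD1 library 3 was the lowest library for all 6, against 42.5% of all tested genes. Among 5 partners of TRIM24 and TRIM33, 0 passed over all genes (against 0.479%), and 3 of 5, Smad3, Smad2 and Rara, were lower at an unadjusted p under 0.05 (against 13.0% of all tested genes). Smad3, a transcription factor of TGF-beta signalling, stood at 7.72, 9.38 and 8.92 FPKM in the controls and at 6.58, 5.99 and 5.12 FPKM with YOD1, with groups apart as for Trim33 (log2 fold change -0.49, SE 0.15, limma adjusted p = 0.144).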

How the data were processed

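Expression was read from a single deposited table of FPKM values (genes by libraries). It also holds the authors' fold ratio, log2 of that ratio, p-value and q-value, per the file headers. Per the submitters' processing notes, StringTie 1.3.0, HISAT2 2.0 and Bowtie 0.12.2 were used and mm8 was the build; their roles are not stated. How the authors' p-values were obtained, and whether reads were stranded, was not stated in any source used here. Every per-sample column was used, and library pairs shared 0 to 6 identical values above 0. FPKM sums ranged from 314172 to 352209 per library. Read depth is unknown, so the number of libraries sets the precision.

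Values were transformed to log2(FPKM + 1), which understates the change of low genes. The 11483 genes reaching 1 FPKM in 3 or more of the 6 libraries entered limma (version 3.58.1, R 4.3.3, intensity trend, two-sided, Benjamini-Hochberg adjustment over all tested genes, threshold 0.05), after tests on simulated data. The table holds no counts, so no count-based test was run.

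Named genes were any called members, tested interferon-linked members, the 2 largest changes and highest level of each C-terminal class, the 5 lowest p per direction, and from related lists the 2 lowest p. Untested members outside the interferon-linked list, and Yod1, Ddx58, Mavs, Pml and marker genes, were named besides. The members, lists and tests were chosen with earlier results of these data known.

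Alternatives were no filter, a filter at 5 FPKM, a pseudocount of 0.1, median-ratio scaling, a replicate block, no intensity trend, an added absolute log2 fold change of 1, each library left out, and removal of length and GC trends (splines with 4 degrees of freedom, lengths from the longest GENCODE M21 transcript, found for 99.2% of tested genes). Promoter sequences are RefSeq's on GRCm38.p6, matched by symbol, and this is another build than mm8. Python 3.11.15, numpy 2.4.6, pandas 2.3.3 and matplotlib 3.10.9 were used.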

Additional observations from a re-analysis of the deposited data

How the results depend on the processing

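The count of TRIM genes called by limma was 0 under every alternative run, with a lowest adjusted p of 0.0909 for any member. The count over all genes, 55, was 0 without a filter, 169 with median-ratio scaling and 20 after removal of length and GC trends (14 higher and 6 lower), and 19 to 242 when 1 library was left out, the extremes being without control 2 and without control 3. It was 31 without control 1 and 132 without YOD1 library 3. The median log2 fold change of tested TRIM genes, -0.15, was -0.013 without a filter (58 genes), -0.053 with median-ratio scaling, and -0.17 to -0.073 when 1 library was left out. The cause of these differences was not tested, other than that removing the filter adds low genes.

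Of 290 refits of the 23 named genes, 270 kept their direction and 0 passed the threshold. Log2 fold changes turned for Trim26 (0.083), Trim32 (0.033), Trim35 (0.055) and Trim8 (0.040) with median-ratio scaling, and for Trim13 (-4.2e-05), Trim26 (0.053), Trim28 (-0.013) and Trim44 (0.038) after removal of length and GC trends. With 1 library left out, 8 genes turned in at least 1 case: Trim13 (-0.097 to 0.12), Trim25 (-0.085 to 0.59), Trim26 (-0.17 to 0.078), Trim28 (-0.055 to 0.12), Trim32 (-0.15 to 0.025), Trim35 (-0.17 to 0.032), Trim44 (-0.29 to 0.059) and Trim56 (-0.57 to 0.054).

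Same-numbered libraries deviated together with r of 0.296, -0.121 and -0.112 across genes, which are not independent replicates, and control 2 correlated best with YOD1 library 3 (0.339), so the numbers were not taken to pair the samples. With the replicate number as a block, 41 genes were called (33 higher and 8 lower), 0 of them TRIM genes, and the TRIM median was -0.15. Depth is unknown, so no detection limit can be given for the members listed at or near 0.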

Other observations

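A set of 4 genes with roles in muscle, not all of the same C-terminal class, was listed at low levels in these epithelial cells. Their values were uneven among the YOD1 libraries. Trim32, named above for a muscle disease, was tested and is not among them. Trim54, Trim55 and Trim63 encode the muscle RING finger proteins of the sarcomere, and Trim72 encodes a membrane repair protein of muscle. They were described after their values were seen. Trim54 stood at 0.784, 0.815 and 0.862 FPKM in the controls and at 0.0313, 0 and 0.699 FPKM in YOD1 libraries 1, 2 and 3. The control values were close together, and YOD1 library 3 was near them while the other 2 were near or at 0. Trim72 stood at 0.147, 0.212 and 0.183 FPKM in the controls and at 0, 0 and 0.434 FPKM with YOD1. Trim55 stood at 0.0934, 0.0552 and 0.109 FPKM in the controls and at 0, 0 and 0.185 FPKM with YOD1. For Trim63 the values were 0.0633, 0.138 and 0.0621 FPKM and then 0.0491, 0 and 0.191 FPKM. YOD1 library 3 was thus the highest of all 6 libraries for Trim55, Trim63 and Trim72, and YOD1 library 2 was listed at 0 for all 4. For Trim54, YOD1 library 3 lay below every control. How often other genes of the table show such values was not counted, so the order is no result about these genes. Of all 28789 genes, 18288 were above 0 in every library. Fitted over the unfiltered table, Trim54 differed by -0.59 on the log2 scale (SE 0.22, limma adjusted p = 0.378).

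Trim50 was listed at 0 in all controls and at 0.110, 0 and 0.0798 FPKM in YOD1 libraries 1, 2 and 3. Trim68 stood at 0.0371, 0.0458 and 0.0605 FPKM in the controls and at 0.194, 0.149 and 0.0728 FPKM with YOD1, and Trim6, a gene of the chromosome 7 run that is not on the interferon-linked list, at 0.119, 0.117 and 0.144 FPKM and at 0.0713, 0.0934 and 0.0671 FPKM. The groups of Trim68 and Trim6 did not overlap, in opposite directions. Of the 32 untested members, 5 had all YOD1 libraries above the controls (against 6.95% of all genes in the table). The YOD1 libraries of 2, Trim54 and Trim6, all lay below (against 10.9%). With no filter, the 4 untested members with an unadjusted limma p under 0.05 (12.5%, against 11.9% of all genes in the table) were Trim68, Trim6, Trim54 and Trim30a, and 0 of the 32 passed after adjustment, as 0 of all 28789 genes did.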
